A study of Mus musculus with 16 samples.

Results

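The genes described here switch off the growth factor and stress kinase cascades that induce them: the dual-specificity phosphatases Dusp1, Dusp4, Dusp5, Dusp6 and Dusp10, the Sprouty genes Spry1, Spry2 and Spry4, and the inducible regulators Phlda1 and Errfi1. All 10 were chosen by symbol as negative feedback genes of ERK and stress kinases; the rule uses no measured value, but the list was drawn up with earlier results of these data known. They were measured by 16 probe sets annotated to one of these symbols alone, among 34945 probe sets with 1 symbol, and each gene is led by its brightest probe set, the one with the highest mean, as was done for all 18193 genes tested. The arrays were of airway epithelial cells of C57BL/6 mice grown at an air-liquid interface, 1 array per culture, in 4 groups of 4: Mmp7-null (Mmp7-/-) scratched, Mmp7-null uninjured, wild-type scratched and wild-type uninjured. Scratched cultures had received 3 scratches, and every culture, uninjured ones included, had been kept in serum-free medium for 24 hours before RNA isolation. Mmp7 is matrilysin, a secreted metalloproteinase of airway epithelium. The time between scratch and RNA isolation and the animals behind each culture are not given in the labels, so p-values measure the spread between these cultures only.

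In the mitogen-activated protein kinase (MAPK) cascades, receptors signal through kinase relays that end in ERK, JNK or p38, and active ERK, JNK and p38 switch on genes whose products shut the relay down again. The dual-specificity phosphatases remove the activating phosphates from the kinases, Sprouty proteins dampen signalling between receptor tyrosine kinases and RAS, and Errfi1 (MIG6) binds and inhibits EGF receptor family members. In wounded epithelium, shed ligands of the EGF receptor are a known trigger of ERK, so these genes are commonly read as its transcriptional record; here only RNA was measured, and no kinase activity.

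Values are log2 intensities, and differences are log2 fold changes; the standard error (SE) beside them comes from a linear model fitted with limma to all 16 arrays, with p adjusted over all genes (Benjamini-Hochberg) and a threshold of 0.05. Control transcripts absent from the arrays set a background of 2.97. Leading probe sets of 9 of the 10 genes lay above it on every array; Spry4 did not. Median intensity per array ran between 9.36 and 10.2 on the linear scale. Probe sets bind with different strength, so levels are compared between groups and never between genes. In RNA from whole cultures, fewer cells of a type and less RNA per cell cannot be told apart. The Mmp7 probe set was at background in all groups, between 2.13 and 2.59 in Mmp7-null and between 2.13 and 2.25 in wild-type cultures, so it does not check the genotype labels. Spiked-in control transcripts divide the arrays into 3 sets, named Lys, Phe and Trpn after the control present. Lys arrays were all Mmp7-null, Trpn arrays all wild-type, and only Phe arrays (4 Mmp7-null and 2 wild-type) held both genotypes; each scratch comparison has both states in each of its sets.

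Of the 10 genes, 7 passed the test in at least 1 of the 5 comparisons and 3 (Dusp4, Dusp10 and Spry4) in none. In wild-type cultures scratching raised Dusp1, Dusp5 and Errfi1 and lowered Dusp6. In Mmp7-null cultures it raised Dusp1 and Phlda1. Spry1, Phlda1 and Errfi1 were lower in Mmp7-null than in wild-type cultures without injury, and Dusp1, Spry2 and Errfi1 were lower after scratching. No member passed as higher in Mmp7-null than in wild-type cultures in either state.

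**Figure D1:**
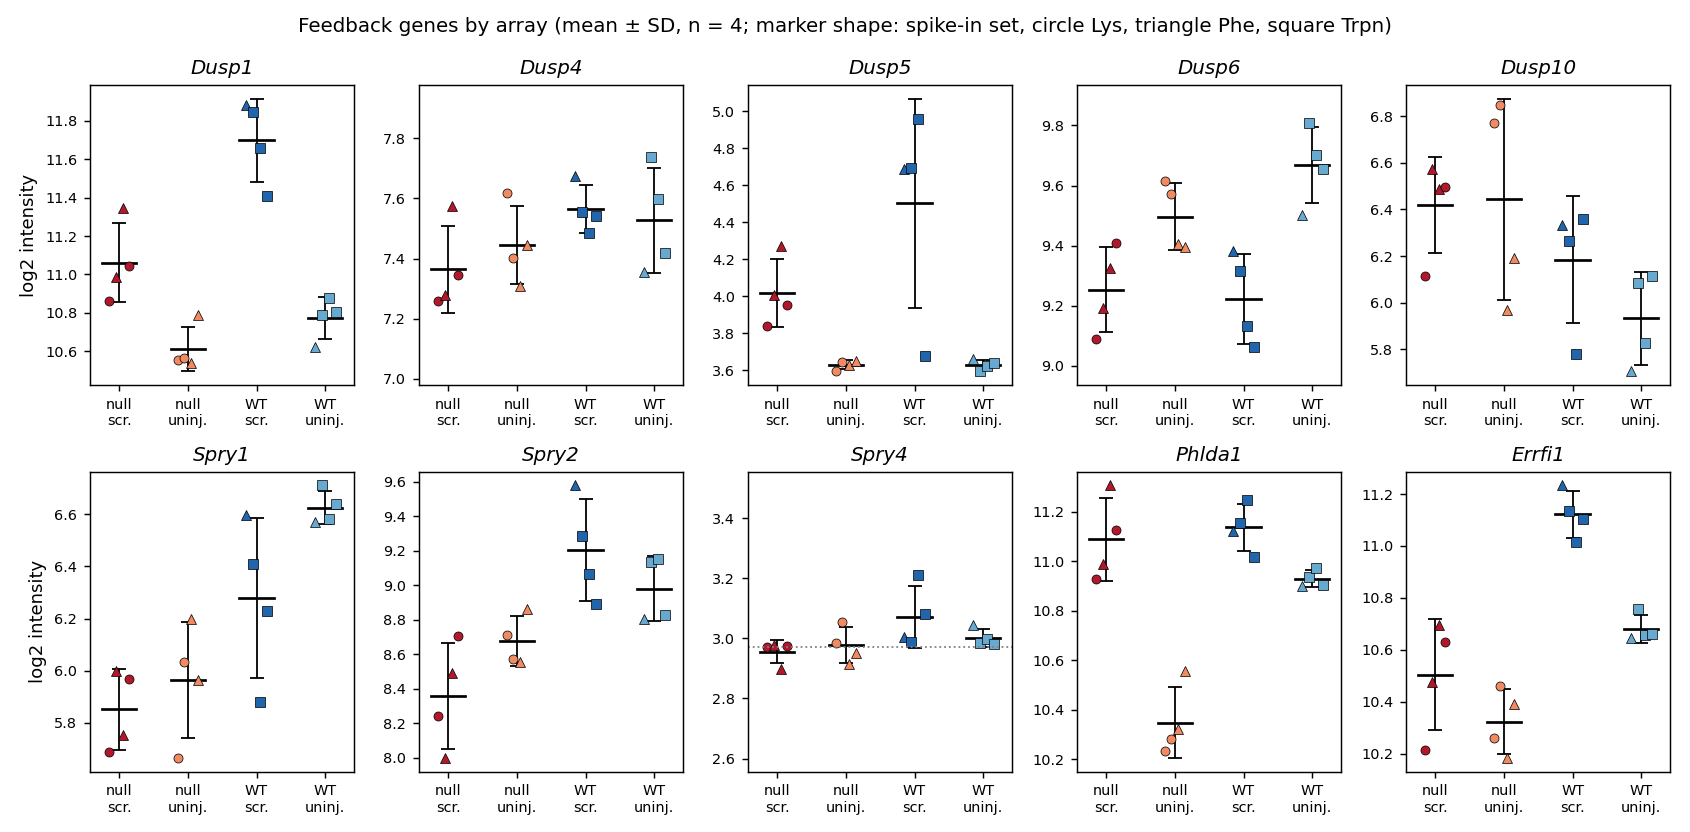
Log2 intensity of the leading probe set of each of the 10 genes on every array, with group means and SD (n = 4); scr. is scratched, uninj. uninjured, null Mmp7-null and WT wild-type, and the marker shape gives the spike-in set. Each panel has its own vertical scale spanning at least 1 log2 unit; the dotted line in the Spry4 panel is the background of 2.97. Dusp1 and Errfi1 were highest in wild-type scratched cultures, Phlda1 was lowest in Mmp7-null uninjured cultures, and Spry4 lay at the background.

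The promoters of the genes that rose on scratching in wild-type cultures are shown because these 3 genes moved together in that comparison. Windows of 250 bases before to 50 bases after an annotated start were read from RefSeq (GRCm38.p6) for 7 of the 10 genes, in 8 windows. The windows were searched on both strands for the cAMP response element TGACGTCA, the AP-1 site TGANTCA, the ETS site CCGGAAG and the CArG box, the element bound by serum response factor; the spelled-out motifs do not overlap one another in these windows. Capitals mark the matches. The Dusp1 window lies at chr17:26508423-26508722 on the minus strand, the Errfi1 window at chr4:150854820-150855119 on the plus strand, around a start inside the annotated gene, and the Dusp5 window at chr19:53528895-53529194 on the plus strand.
Dusp1: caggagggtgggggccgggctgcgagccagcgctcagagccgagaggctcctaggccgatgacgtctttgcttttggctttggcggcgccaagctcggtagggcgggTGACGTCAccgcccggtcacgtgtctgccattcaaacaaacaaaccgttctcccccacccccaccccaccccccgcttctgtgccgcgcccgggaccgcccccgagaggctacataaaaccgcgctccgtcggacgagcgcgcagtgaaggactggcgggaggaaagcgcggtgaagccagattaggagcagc
Errfi1: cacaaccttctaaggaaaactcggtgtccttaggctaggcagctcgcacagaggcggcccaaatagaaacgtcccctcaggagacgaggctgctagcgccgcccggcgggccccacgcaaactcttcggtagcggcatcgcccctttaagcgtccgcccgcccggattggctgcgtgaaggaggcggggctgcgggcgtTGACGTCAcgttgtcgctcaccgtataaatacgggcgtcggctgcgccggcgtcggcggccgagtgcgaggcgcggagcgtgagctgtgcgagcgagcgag
Dusp5: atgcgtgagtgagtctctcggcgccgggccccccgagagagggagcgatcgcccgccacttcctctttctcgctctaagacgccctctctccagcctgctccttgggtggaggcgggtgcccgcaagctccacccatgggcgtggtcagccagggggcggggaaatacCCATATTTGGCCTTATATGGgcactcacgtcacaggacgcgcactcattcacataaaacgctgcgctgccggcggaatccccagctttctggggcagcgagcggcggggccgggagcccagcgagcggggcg
Dusp1 holds 1 cAMP response element, its first base at -143 from the annotated start, and this Errfi1 window holds 1 at -51. Such an element was found in 1.79% of all 32851 RefSeq promoter windows of this length. Dusp5 holds 2 adjoining CArG boxes, at -82 and -72, a motif present in 1.63% of windows. None of the 4 motifs was found in the windows of Dusp6, Dusp10, Spry1 and Spry2 or in the other Errfi1 window, where AP-1 sites occur in 7.81% and the ETS site in 8.86% of all windows. A match describes the letters of the window and is no evidence that a factor binds there.

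The scratch comparison in wild-type cultures asks how these genes respond to injury when the Mmp7 gene is intact. Of the 10 genes, 3 rose, 1 fell and 6 did not pass, where 2.55% of all genes rose and 2.30% fell. The median log2 fold change was 0.22 over the 10 genes and 0.01 over all genes. In Mmp7-null cultures 2 of the 10 rose and 0 fell (limma), where 2.27% of all genes rose and 2.45% fell, and 1 member was lower at an unadjusted p under 0.05. In either direction, 3 of the 10 reached that level in Mmp7-null cultures, against 17.4% of all genes. In wild-type cultures 6 of the 10 did, against 16.5% of all genes. The median in Mmp7-null cultures was -0.02 for the 10 genes, as for all genes. Scratched and uninjured cultures did not overlap for 12.8% of all genes in Mmp7-null and 10% in wild-type cultures.

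Dusp1, an immediate early phosphatase of p38, JNK and ERK (probe set 1448830_at; Entrez 19252; chromosome 17, 26505591 to 26508472, GRCm38.p6), rose on scratching in both genotypes. Its levels were 10.86, 10.99, 11.35 and 11.04 in Mmp7-null scratched cultures, against 10.56, 10.56, 10.54 and 10.79 in Mmp7-null uninjured cultures. They were 11.88, 11.85, 11.66 and 11.41 in wild-type scratched cultures, against 10.62, 10.79, 10.88 and 10.80 in wild-type uninjured cultures. In each genotype every scratched culture lay above every uninjured one, and every wild-type scratched culture lay above every Mmp7-null scratched one. Scratched cultures of the 2 genotypes did not overlap for 32.7% of all genes. The scratch response was 0.45 in Mmp7-null cultures (SE 0.11, adjusted p = 0.0404), a 1.36-fold rise, and 0.93 in wild-type cultures (SE 0.11, adjusted p = 0.000247), a 1.90-fold rise. The responses differed by -0.48 (SE 0.16, unadjusted p = 0.0109, limma adjusted p = 0.456), which did not pass. The wild-type rise kept its call in all 30 alternative settings that gave it a value, between 0.81 and 1.26. The value of 1.26 comes from the Phe arrays, with 1 wild-type culture per state. The Mmp7-null rise lost its call when the spike-in set was blocked on (0.45, adjusted p = 0.0545), and was 0.39 within Lys and 0.50 within Phe arrays. It also lost it on leaving out any 1 of 9 arrays (Mmp7-null scratched 2, 3 or 4, Mmp7-null uninjured 1, 2 or 3, wild-type scratched 3, wild-type uninjured 2 or 4), with values between 0.35 and 0.47 and adjusted p between 0.0517 and 0.103.

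Dusp5, a nuclear phosphatase specific for ERK (1437199_at; Entrez 240672; chromosome 19, 53529145 to 53541809), was close to background without injury. The 4 Mmp7-null scratched cultures read 3.84, 4.01, 4.27 and 3.95, against 3.59, 3.64, 3.63 and 3.65 in Mmp7-null uninjured cultures. Wild-type scratched cultures read 4.69, 4.69, 4.96 and 3.68, against 3.66, 3.59, 3.62 and 3.64 in wild-type uninjured cultures. Thus 3 of the wild-type scratched cultures stood above all others, and the last, replicate 4, stood at the uninjured level. That array also had the widest gap between 3' and 5' actin control probe sets, 2.62 log2 units, against at most 1.93 on the other arrays. The part of that gap in the low value was not tested. With all arrays, the response was 0.39 in Mmp7-null cultures (SE 0.20, adjusted p = 0.354), which did not pass, and 0.88 in wild-type cultures (SE 0.20, adjusted p = 0.0218), a 1.83-fold rise. Without wild-type scratched replicate 4, the wild-type rise was 1.15, the Mmp7-null rise was 0.39 and passed (adjusted p = 0.0142), and the responses differed by -0.76 (adjusted p = 0.0353). With all arrays that difference was -0.49 (SE 0.28, adjusted p = 0.722). The wild-type rise lost its call on leaving out any other wild-type array, 7 in all, with values between 0.72 and 0.89 and adjusted p between 0.0504 and 0.0644. It was 0.82 within Trpn arrays (adjusted p = 0.18) and 1.03 within Phe arrays, which hold 1 wild-type culture per state.

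Dusp6, the cytoplasmic ERK phosphatase that is a standard readout of FGF signalling (1415834_at; Entrez 67603; chromosome 10, 99263231 to 99267489), fell on scratching in wild-type cultures. It read 9.09, 9.19, 9.32 and 9.41 in Mmp7-null scratched cultures, against 9.62, 9.57, 9.41 and 9.39 in Mmp7-null uninjured cultures, and the 2 groups overlapped. It read 9.38, 9.31, 9.13 and 9.06 in wild-type scratched cultures, against 9.50, 9.81, 9.70 and 9.66 in wild-type uninjured cultures, with no overlap. The difference was -0.24 in Mmp7-null cultures (SE 0.09, adjusted p = 0.163), which did not pass, and -0.44 in wild-type cultures (SE 0.09, adjusted p = 0.0112), where scratched cultures held 0.735 times the uninjured level. The wild-type fall was -0.55 within Trpn arrays (adjusted p = 0.0123) and -0.12 within the 2 Phe arrays, 1 per state. It missed the threshold when 3 arrays of doubtful quality were dropped (Mmp7-null scratched 1 and wild-type scratched 3 and 4), at -0.32 with adjusted p = 0.0858.

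Errfi1, which blocks the kinase domain of the EGF receptor and directs the receptor to degradation (1416129_at; Entrez 74155; chromosome 4, 150853796 to 150868889), read 10.21, 10.48, 10.70 and 10.63 in Mmp7-null scratched cultures, against 10.26, 10.46, 10.18 and 10.39 in Mmp7-null uninjured cultures. Wild-type scratched cultures read 11.23, 11.13, 11.01 and 11.10, against 10.65, 10.76, 10.66 and 10.66 in wild-type uninjured cultures. Wild-type scratched cultures were above all others, and Mmp7-null groups overlapped each other. Scratch gave 0.18 in Mmp7-null cultures (SE 0.09, adjusted p = 0.344), which did not pass, and 0.44 in wild-type cultures (SE 0.09, adjusted p = 0.0121), a 1.36-fold rise. Within spike-in sets the wild-type rise was 0.39 (Trpn, adjusted p = 0.126) and 0.59 (Phe, 1 wild-type culture per state). A further Errfi1 probe set (1419816_s_at), whose levels ran from 7.81 to 9.03, gave 0.15 in Mmp7-null cultures (adjusted p = 0.784) and 0.20 in wild-type cultures (adjusted p = 0.737 over all probe sets), so the rise was not found there. On it, too, wild-type scratched replicate 4 stood apart, at 8.15 against 8.97, 9.03 and 8.99 on the other wild-type scratched arrays. With the mean of both probe sets the wild-type rise was 0.32 and did not pass (adjusted p = 0.169).

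Phlda1, an inducible pleckstrin homology domain protein linked to receptor signalling and cell survival (1418835_at; Entrez 21664; chromosome 10, 111506286 to 111508649), rose on scratching in Mmp7-null cultures. Its levels were 10.93, 10.99, 11.31 and 11.13 in Mmp7-null scratched cultures, against 10.23, 10.28, 10.32 and 10.56 in Mmp7-null uninjured cultures. They were 11.12, 11.16, 11.25 and 11.02 in wild-type scratched cultures, against 10.90, 10.94, 10.97 and 10.90 in wild-type uninjured cultures. Mmp7-null uninjured cultures were thus the low group, below all 12 other cultures. The rise was 0.74 in Mmp7-null cultures (SE 0.08, adjusted p = 0.000263), 1.67-fold, and kept its call in all 30 alternative settings that gave it a value (0.67 to 0.81). In wild-type cultures the value was 0.21 (SE 0.08, adjusted p = 0.206), which did not pass, although scratched and uninjured cultures did not overlap. The responses differed by 0.53 (SE 0.12, unadjusted p = 0.000482); limma's adjusted p was 0.116, between 0.0516 and 0.847 over the alternatives.

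The Sprouty genes did not pass the scratch test in either genotype. Spry1, an inhibitor of FGF and other receptor tyrosine kinase signals, had -0.11 in Mmp7-null (adjusted p = 0.776) and -0.35 in wild-type cultures (adjusted p = 0.213). Spry2 had -0.32 in Mmp7-null (adjusted p = 0.363) and 0.22 in wild-type cultures (adjusted p = 0.568). The 2 Spry2 responses differed by -0.54 (SE 0.23, unadjusted p = 0.0357, limma adjusted p = 0.595). Spry4 lay between 2.90 and 3.21 on its leading probe set (1445669_at), above background on 12 of 16 arrays by a narrow margin, and its other 3 probe sets lay between 2.13 and 2.33, below background. No level of Spry4 RNA could therefore be compared.

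**Figure D2:**
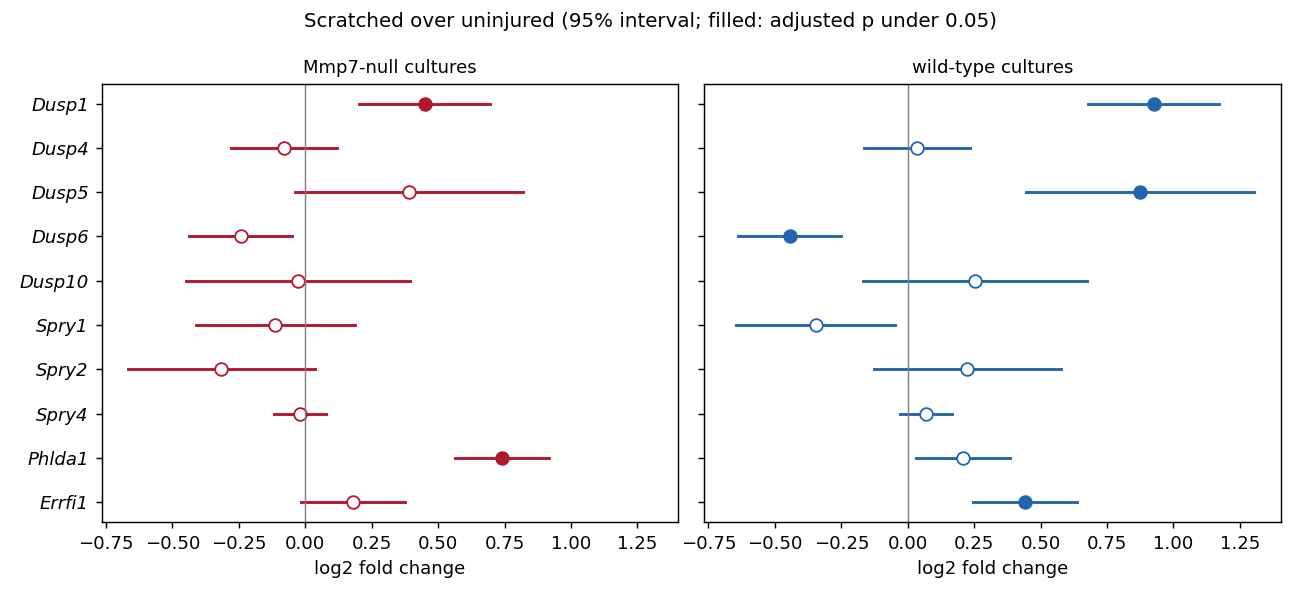
Log2 fold change of scratched over uninjured cultures for the 10 genes in Mmp7-null cultures (left) and wild-type cultures (right), with 95% intervals from limma; filled points passed at an adjusted p under 0.05. Dusp1 stands to the right of 0 in both panels (0.45 and 0.93), Phlda1 passes on the left panel alone (0.74 against 0.21), and Dusp6 lies to the left of 0 in both (-0.24 and -0.44).

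The test of whether genotype changes the scratch response gave 0 of the 10 genes by limma, where 0.0275% of all genes passed with a larger and 0.104% with a smaller response in Mmp7-null cultures. At an unadjusted p under 0.05 there were 3 members, Phlda1 with the larger and Dusp1 and Spry2 with the smaller response in Mmp7-null cultures, against 7.79% of all genes. The statements above on a rise in one genotype therefore do not establish a difference between genotypes.

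Without injury, 3 of the 10 genes were lower in Mmp7-null than in wild-type cultures and 0 were higher, where 2.50% of all genes were lower and 2.30% higher. Dusp10 was the single member higher at an unadjusted limma p under 0.05, and 3 were lower, against 15.5% of all genes in either direction. The median log2 fold change was -0.17 over the 10 genes and -0.01 over all genes. For 11.7% of all genes these 2 groups did not overlap. Spry1 (1415874_at; Entrez 24063; chromosome 3, 37639947 to 37644599) read 5.66, 6.03, 6.20 and 5.96 in Mmp7-null uninjured cultures, against 6.57, 6.71, 6.58 and 6.64 in wild-type uninjured cultures. The groups did not overlap, and the wild-type cultures spanned a narrower range. The difference was -0.66 (SE 0.14, adjusted p = 0.0143), 0.632 times the wild-type level. It was -0.56 with adjusted p = 0.0508 without Mmp7-null uninjured replicate 1. Phlda1 in uninjured Mmp7-null cultures was at 0.668 times the wild-type level, a difference of -0.58 (SE 0.08, adjusted p = 0.00133). Errfi1 was at 0.781 times the wild-type level, -0.36 (SE 0.09, adjusted p = 0.0397). On its further probe set the difference was -0.51 and did not pass (adjusted p = 0.228). The Errfi1 call was lost on leaving out any 1 of 9 arrays (Mmp7-null uninjured 1, 3 or 4, any wild-type uninjured array, or replicate 2 of either scratched group), with values between -0.38 and -0.31 and adjusted p up to 0.123.

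Because the spike-in sets follow genotype, these differences were also taken blocked by set and inside the Phe arrays. With the block the uninjured differences were -0.72 for Spry1 (adjusted p = 0.164), -0.48 for Phlda1 (adjusted p = 0.0905) and -0.37 for Errfi1 (adjusted p = 0.371). Within the Phe arrays, 2 Mmp7-null against 1 wild-type, they were -0.49, -0.46 and -0.36, with adjusted p of 0.791, 0.416 and 0.781. Each kept its direction and none its call; over all genes the block left 57 calls in this comparison, against 872 without it.

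After scratching, 3 of the 10 genes were lower in Mmp7-null than in wild-type cultures and 0 were higher, where 2.92% of all genes were lower and 3.29% higher by limma. At an unadjusted p under 0.05, 7 of the 10 were lower and 0 higher. The 7 include Spry4, which lay at background, and Dusp4 at the edge (limma unadjusted p = 0.0494). Over all genes 22.3% reached that level in either direction, and the share that was lower was not counted. Between scratched genotypes 32.7% of all genes showed no overlap, and most of those were lower in Mmp7-null cultures. A lean towards lower values was therefore not confined to the 10 genes. The median was -0.31 for the 10 genes and -0.04 for all genes. Errfi1 was at 0.652 times the wild-type level, -0.62 (SE 0.09, adjusted p = 0.00119), and every Mmp7-null culture lay below every wild-type one. The further Errfi1 probe set gave -0.57 (adjusted p = 0.137). Dusp1 was at 0.642 times the wild-type level, -0.64 (SE 0.11, adjusted p = 0.00429).

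Spry2, which restrains receptor tyrosine kinase signalling in branching lung epithelium (1436584_at; Entrez 24064; chromosome 14, 105891947 to 105896819), read 8.24, 7.998, 8.49 and 8.71 in Mmp7-null scratched cultures, against 9.58, 9.29, 9.06 and 8.89 in wild-type scratched cultures. The groups did not overlap, as for 32.7% of all genes in this comparison. The highest Mmp7-null and the lowest wild-type culture were near each other. The difference was -0.85 (SE 0.16, adjusted p = 0.00706), 0.557 times the wild-type level. In uninjured cultures the Spry2 levels were 8.71, 8.57, 8.56 and 8.86 in Mmp7-null and 8.80, 9.14, 9.15 and 8.83 in wild-type cultures, which overlapped, with a difference of -0.30 (adjusted p = 0.437). The other Spry2 probe set (1421656_at) lay below background on every array, between 2.32 and 2.74.

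Blocked by spike-in set, the differences between scratched cultures were -0.63 for Errfi1 (adjusted p = 0.0487), which kept its call, -0.57 for Dusp1 (adjusted p = 0.117) and -0.98 for Spry2 (adjusted p = 0.0757). Within the Phe arrays, 2 Mmp7-null against 1 wild-type, they were -0.65, -0.71 and -1.33. That wild-type culture, replicate 1, read highest of the wild-type scratched cultures for all 3 genes, so the within-set values rest on 1 extreme culture. Spry1 read 5.69, 6.00, 5.75 and 5.97 in Mmp7-null scratched cultures, against 6.60, 6.41, 5.88 and 6.23 in wild-type scratched cultures, and wild-type scratched replicate 3 fell among the Mmp7-null values. Its difference of -0.43 did not pass (adjusted p = 0.0953), and passed without that array (-0.56, adjusted p = 0.0188). Dusp5 differed by -0.49 (adjusted p = 0.181), and by -0.76 without wild-type scratched replicate 4 (adjusted p = 0.000291).

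**Figure D3:**
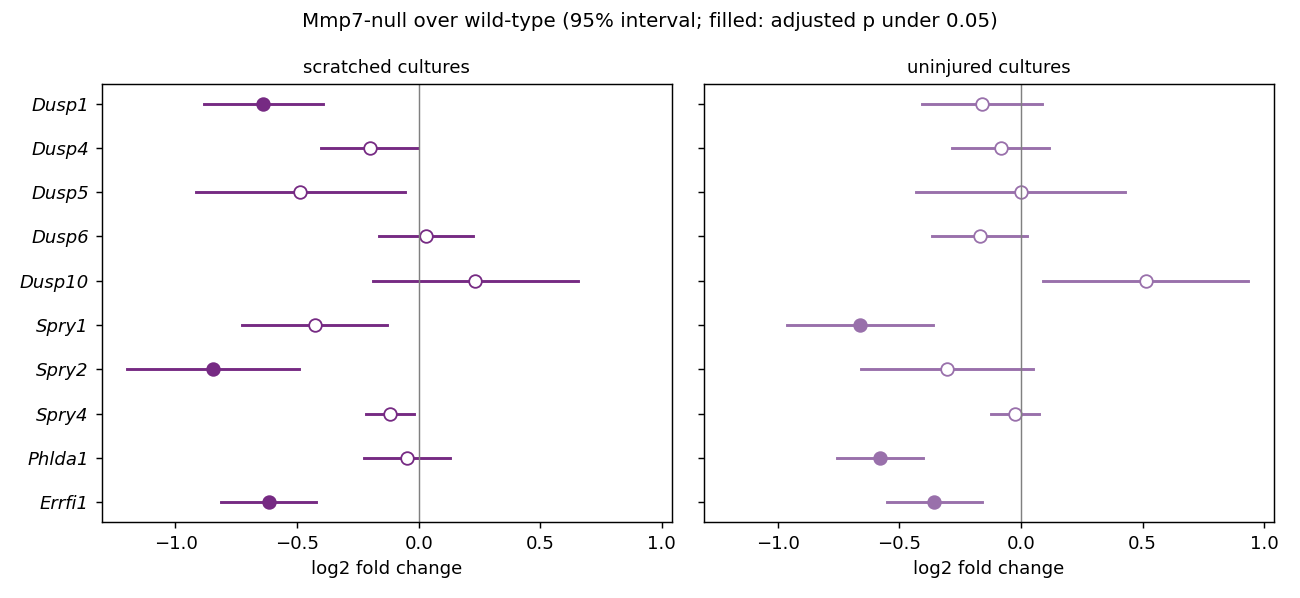
Log2 fold change of Mmp7-null over wild-type cultures for the 10 genes, in scratched cultures (left) and uninjured cultures (right), with 95% intervals from limma; filled points passed at an adjusted p under 0.05. Errfi1 passes in both panels (-0.62 and -0.36), Spry2 and Dusp1 on the left alone (-0.85 and -0.64), and Spry1 and Phlda1 on the right alone (-0.66 and -0.58).

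**Figure D4:**
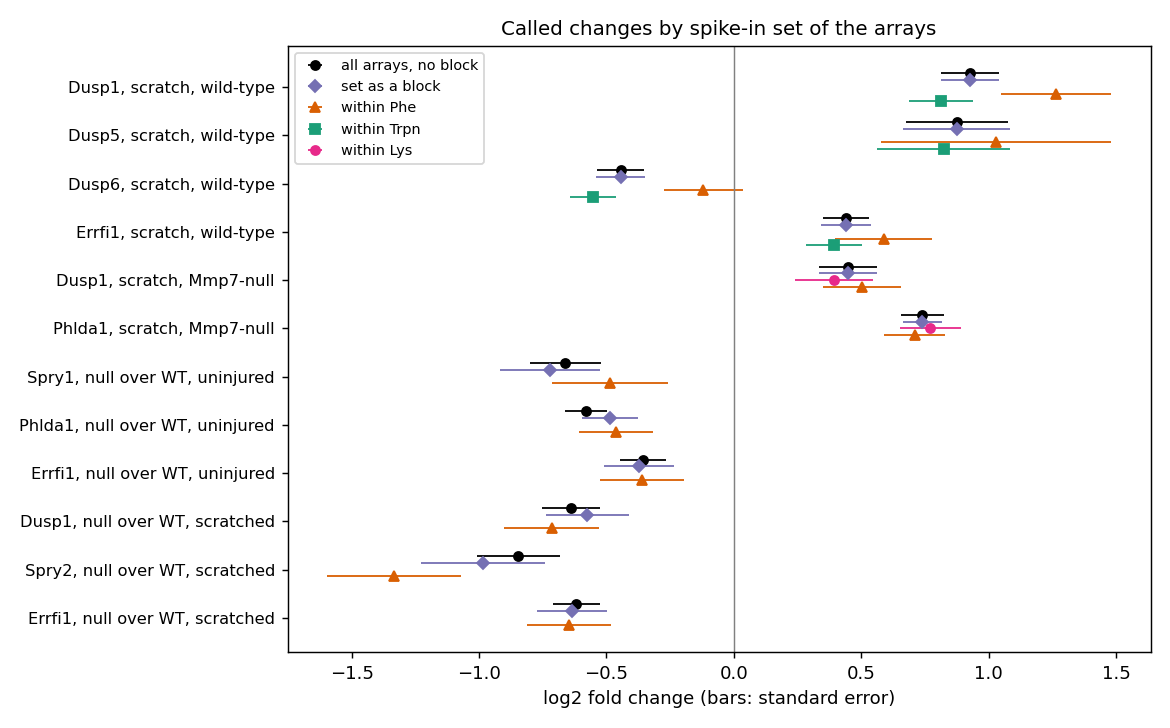
Log2 fold changes with standard errors of the 12 called changes over all arrays, blocked by spike-in set, and within each set that held both groups. All estimates lie on the same side of 0 as the value over all arrays, and Dusp6 in wild-type cultures shows the smallest within-set value, -0.12 within the Phe arrays.

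The phosphatases without a call were measured well above background. Dusp4, a nuclear phosphatase of ERK and JNK (1428834_at; Entrez 319520; chromosome 8, 34807610 to 34819894), averaged 7.36 ± 0.15 in Mmp7-null scratched, 7.44 ± 0.13 in Mmp7-null uninjured, 7.56 ± 0.08 in wild-type scratched and 7.53 ± 0.17 in wild-type uninjured cultures (SD, n = 4). Its scratch response had a 95% interval of -0.28 to 0.12 in Mmp7-null and of -0.16 to 0.24 in wild-type cultures, so changes beyond these bounds lay outside the intervals. Dusp10, which acts on p38 and JNK (1417164_at; Entrez 63953; chromosome 1, 184034381 to 184075636), read 6.77, 6.85, 5.97 and 6.19 in Mmp7-null uninjured cultures, against 5.70, 6.08, 5.83 and 6.12 in wild-type uninjured cultures. The 2 Mmp7-null cultures on Lys arrays were the high ones and the 2 on Phe arrays fell within or near the wild-type range. The difference was 0.51 (SE 0.20, adjusted p = 0.191) over all arrays and 0.38 within the Phe arrays. The other Dusp10 probe set (1417163_at) was above background on 1 array of 16.

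The order of the 4 groups by mean level was shared by some genes and not by others. For Dusp1 the order was wild-type scratched (11.70), Mmp7-null scratched (11.06), wild-type uninjured (10.77) and Mmp7-null uninjured (10.61), and the last 2 did not differ beyond their spread (adjusted p = 0.642). For Errfi1 it was wild-type scratched (11.12), wild-type uninjured (10.68), Mmp7-null scratched (10.50) and Mmp7-null uninjured (10.32), and the Mmp7-null groups did not pass. For Phlda1 wild-type scratched (11.14) and Mmp7-null scratched cultures (11.09) differed by -0.05, with a 95% interval of -0.23 to 0.13, followed by wild-type uninjured (10.93) and Mmp7-null uninjured cultures (10.35). For Spry1 it was wild-type uninjured (6.63), wild-type scratched (6.28), Mmp7-null uninjured (5.96), then Mmp7-null scratched (5.85), with no pass between the states of either genotype. For Spry2 both wild-type groups (9.20 scratched and 8.98 uninjured) were above both Mmp7-null groups (8.36 scratched and 8.68 uninjured). For Dusp6 both uninjured groups (9.50 in Mmp7-null and 9.67 in wild-type cultures) were above both scratched groups (9.25 in Mmp7-null and 9.22 in wild-type cultures), and within each state the genotypes did not pass.

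For each of the 7 genes with a call, the genes above background whose centred profile over the 16 arrays lay nearest were found by the root mean square difference in log2 units. Nearest to Dusp1 were Krt23 (0.157), Birc5 (0.175) and Lmnb1 (0.183), where Dusp1 itself had an SD of 0.44 over the arrays. Nearest to Dusp5 were Hic2 (0.212), Dusp1 (0.214) and the EGF receptor ligand Hbegf (0.238). Nearest to Phlda1 were the AP-1 subunit gene Fosl2 (0.109), Iffo2 (0.111) and Pmepa1 (0.123). The neighbours of Errfi1 were the cyclin gene Ccnd2 (0.127), Slco4a1 (0.132) and Gpr137b (0.135), and those of Spry2 were the growth factor gene Vegfa (0.190), Sema3c (0.218) and Npr3 (0.223). Spry1 lay nearest to Cyfip2 (0.144), Hs2st1 (0.168) and AU018091 (0.173), and Dusp6 to Pigf (0.0814), Stam (0.0902) and Mrpl50 (0.0924). These neighbours were chosen for likeness among all genes above background and are given as a description.

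Other genes of the pathway were taken from fixed lists. Of 98 listed genes 88 were measured by a probe set of their own symbol, and the others were not analysed here. Of 12 other DUSP genes, 0 passed for scratch in either genotype by limma (1 in each at an unadjusted p under 0.05), and Dusp3 alone was lower in Mmp7-null than in wild-type uninjured cultures (-0.32, adjusted p = 0.0459). Between scratched genotypes 0 of the 12 passed by limma, with 7 at an unadjusted p under 0.05, against 22.3% of all genes. The median of the 12 was -0.07 there, and 9 of them averaged above background. Among 6 relatives of the Sprouty and PHLDA genes, the RAS pathway inhibitors Spred1 (-0.67, SE 0.14, adjusted p = 0.0141) and Spred2 (-0.44, SE 0.08, adjusted p = 0.00506) fell on scratching in wild-type cultures. Spred2 was also lower in Mmp7-null than in wild-type uninjured cultures (-0.57, adjusted p = 0.00127). None of the 10 measured RAS, RAF, MEK and ERK genes passed in any of the 5 limma comparisons, with 0 or 1 in each at an unadjusted p under 0.05.

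Of 11 EGF receptor family ligands and receptors, 1 passed: Erbb3, the neuregulin receptor, was lower in Mmp7-null than in wild-type scratched cultures (-0.36, adjusted p = 0.00382). Among 14 FGF receptor and adaptor genes, Fgfr3 (-0.45, adjusted p = 0.0387) and the adaptor gene Gab1 (-0.33, adjusted p = 0.0124) were lower and the ubiquitin ligase gene Cblb was higher (0.61, adjusted p = 0.00559) in that comparison. Of 15 JNK and p38 kinase genes, Mapk13 (p38 delta) rose on scratching in wild-type cultures (0.64, SE 0.08, adjusted p = 0.000404).

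ERK target genes offer a comparison with the feedback genes. Of 20 measured, 4 rose on scratching in Mmp7-null cultures, namely Egr1 (0.79, SE 0.12, adjusted p = 0.00242), Plaur (0.67, adjusted p = 0.00725), Elk3 (0.64, adjusted p = 0.00127) and Fos (0.53, adjusted p = 0.00458). In wild-type cultures 2 rose, Elk3 (0.48, adjusted p = 0.00673) and Ier3 (0.32, adjusted p = 0.0396). Egr1 (-0.55, adjusted p = 0.0189), Junb (-0.39, adjusted p = 0.0474) and Epha2 (-0.39, adjusted p = 0.0423) were lower in Mmp7-null than in wild-type uninjured cultures, and 0 of the 20 passed between scratched cultures by limma (4 at an unadjusted p under 0.05). Egr1, an immediate early transcription factor of ERK, averaged 8.55 ± 0.08 in Mmp7-null scratched cultures, against 7.76 ± 0.28 in Mmp7-null uninjured cultures. It averaged 8.34 ± 0.18 in wild-type scratched cultures, against 8.31 ± 0.11 in wild-type uninjured cultures (SD, n = 4). As for Phlda1, Mmp7-null uninjured cultures were the low group.

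Markers of cell types moved along with these comparisons, and their part in the results was not tested. All 4 airway epithelial markers were above background, and Krt8 and Krt18 rose on scratching in both genotypes; Krt5, the basal cell keratin, fell by 0.45 in Mmp7-null and by 0.80 in wild-type cultures. Of the 4 multiciliated cell markers, Foxj1, Tubb4b and Ccdc39 were higher in Mmp7-null than in wild-type cultures in both states. Their summed intensity (4 markers) ran from 13100 to 14000 in Mmp7-null scratched, 11800 to 12600 in Mmp7-null uninjured, 10400 to 11400 in wild-type scratched and 9560 to 10800 in wild-type uninjured cultures. The summed intensity of 4 basal cell markers was 2510 to 3110 in Mmp7-null scratched, 3200 to 3640 in Mmp7-null uninjured, 2120 to 2880 in wild-type scratched and 3710 to 3940 in wild-type uninjured cultures. Their median log2 fold change of Mmp7-null over wild-type was 0.31 scratched, with 1 of the 4 called higher. Uninjured, it was 0.098, with 1 called lower, so sum and median differed in direction there. The summed intensity of 4 alveolar type 1 markers was 15700 to 19200 in Mmp7-null scratched, 18900 to 22700 in Mmp7-null uninjured, 23100 to 26600 in wild-type scratched and 25200 to 26100 in wild-type uninjured cultures. Ager, one of them, differed by -2.35 between scratched and by -2.29 between uninjured genotypes. Of 2 alveolar type 2 markers measured, Sftpc was higher in Mmp7-null cultures by 1.80 scratched and 1.504 uninjured. The other was lower in both states, with list medians of 0.84 and 0.59. Of 3 smooth muscle markers, the actin gene Acta2 was higher by 1.10 scratched and 1.37 uninjured. The others were lower in both states, with list medians of -0.07 and -0.007. Of 3 goblet cell markers, only Muc5b passed, rising on scratching by 2.64 in Mmp7-null and by 3.26 in wild-type cultures. The list medians were -0.04 and 0.16. Of 4 leukocyte markers, Ptprc, Itgam and Cd3e were at background in every group, while Cd68 rose on scratching in wild-type cultures (1.03) and was lower in Mmp7-null than in wild-type scratched cultures (-0.92). The summed intensity of the leukocyte markers was 90.7 to 136 in Mmp7-null scratched, 120 to 131 in Mmp7-null uninjured, 201 to 242 in wild-type scratched and 98.7 to 128 in wild-type uninjured cultures. All 3 endothelial markers, and Col1a1, Col1a2 and Col3a1 of the fibroblast markers except in some Mmp7-null scratched cultures, were at background.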

How the data were processed

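RNA of 16 cultures was hybridised to 1 Affymetrix array each. The deposited values are intensities on a linear scale, made by the authors with RMA, per the submitters' processing notes; the version is not given in the sources used here. The labels name a smaller array than the one whose 45101 probe sets the table lists. Values were converted to log2 with no further normalization or filter. Control probe sets (64) and probe sets with several symbols (932) or none (9160) were left out, and genes were led by their brightest probe set. Group means were fitted over all arrays in R 4.3.3 with limma 3.58.1 (12 residual degrees of freedom), p-values were adjusted by Benjamini-Hochberg over 18193 genes, and further probe sets were adjusted over 34945; the script was tested on simulated data. The number of arrays limits the precision. No 2 arrays held identical values. Text names all 10 members, up to 4 called genes per pathway list and comparison, and 3 neighbours of each called member. The members and lists were chosen with earlier results of these data known. Alternatives changed 1 choice at a time: replicate, spike-in set, samples, filter, probe sets, scaling, offset, variance, weights and arrays left out. The 3 doubtful arrays were named by an earlier analysis of these data. Promoters came from RefSeq GRCm38.p6.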

Additional observations from a re-analysis of the deposited data

Results flagged for a closer look

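In 4 of 40 groups of 4 cultures, 1 culture lay far from the other 3 by Dixon's test on the log2 intensity, where chance flags about 1 group in 20. Dusp1 read 10.79 in Mmp7-null uninjured replicate 4, against 10.54 to 10.56 in the other 3. Errfi1 read 10.76 in wild-type uninjured replicate 2, against 10.65 to 10.66 in the others. Dusp10 read 5.78 in wild-type scratched replicate 3, against 6.27 to 6.36 in the others. Spry4 read 2.90 in Mmp7-null scratched replicate 3, against 2.97 to 2.98, all at the background.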

How the results depend on the processing

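Of 50 pairs of member and comparison, 12 were called. Dusp1 on wild-type scratching and Phlda1 on Mmp7-null scratching kept their call in every setting run, the other 10 lost it in some setting, and none reversed. Of the uncalled pairs 4 were called in some setting (Spry1 and Dusp5 between scratched genotypes, Dusp5 on Mmp7-null scratching and in the difference of responses), and 14 changed sign while uncalled. The count of members called on Mmp7-null scratching, 2 over all arrays, was 1 with the replicate block, with only the 8 arrays compared, with every probe set its own row, with arrays centred on the median, with the spike-in block and within the Phe or Lys arrays. Between scratched genotypes, 3 over all arrays became 1 with the 8 arrays compared, with the spike-in block and within Phe, and 5 with array weights and without the 3 doubtful arrays. Between uninjured genotypes, 3 became 0 with the spike-in block and within Phe. On wild-type scratching, 4 became 2 within Trpn and 1 within Phe. For the difference of responses, 0 became 1 (Dusp5) without the 3 doubtful arrays. Leaving out 1 array gave 3 to 4 members for wild-type scratching, 1 to 3 for Mmp7-null scratching, 1 to 3 between uninjured genotypes, 3 to 4 between scratched genotypes and 0 to 1 for the difference. The cause was not tested, except that fewer arrays enter the within-set and 8-array values. Replicate numbers gave no clear sign of pairing: 5 of 24 pair correlations were over 0.1 (-0.218 to 0.307). In 6 of the 24 pairs the array with the same number correlated best. Correlations cannot decide whether the cultures were paired. With the replicate block Errfi1 between uninjured genotypes (-0.36, adjusted p = 0.0634) and Dusp1 on Mmp7-null scratching (0.45, adjusted p = 0.0734) lost their call.

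Counts over all genes moved by more than 1.5 times as follows. The 883 calls on wild-type scratching became 418 within Trpn, 204 within Phe and 1405 with array weights. The 859 on Mmp7-null scratching became 402 with the 8 arrays, 286 within Lys, 79 within Phe, and 516 or 528 without Mmp7-null uninjured 2 or 3. The 872 between uninjured genotypes became 57 with the spike-in block, 42 within Phe, 1310 without the 3 doubtful arrays, and 480 or 534 without Mmp7-null or wild-type uninjured 1. The 1130 between scratched genotypes became 527 with the 8 arrays, 252 with the spike-in block, 223 within Phe and 1745 with array weights. The 24 for the difference ran between 5 (arrays centred) and 100 (array weights). Centring each array on its median gave 344 higher and 594 lower on wild-type scratching, against 464 and 419 without it, 598 and 311 between scratched genotypes, against 599 and 531, and 2 and 3 for the difference, against 5 and 19. No scaling moved the median of all genes by over 0.1. Depth is not defined for arrays; Spry4, near background, carries no usable level.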
